A study of Mus musculus with 6 samples.

Results

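The oligodendrocytes of the mouse cortex at postnatal day 5 (P5) were the 354 cells that carried the subtype name Oligodendrocytes in the deposited annotation, of 18393 annotated cells. Of the remaining cells, 1113 were marked as doublets, so that the oligodendrocytes made up 354 of 17280 single cells. They were found in all 6 mice, with 26, 98 and 60 cells in WT 1 to 3 and 24, 38 and 108 cells in *Fmr1*-KO 1 to 3. The nearest subtype in the lineage was that of oligodendrocyte precursor cells (OPC_1), with 1953 cells.

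Oligodendrocytes wrap axons of the central nervous system in myelin, a stack of membrane rich in cholesterol and galactolipids and held together by a small set of proteins. They arise from dividing precursors that carry the receptor *Pdgfra*, leave the cell cycle, pass through a stage in which *Bcas1*, *Enpp6* and *Gpr17* are expressed, and only then make myelin proteins in bulk. In the rodent cortex this change is at its beginning in the first postnatal week. *Fmr1* encodes FMRP, an RNA-binding protein whose loss causes fragile X syndrome, and the mRNA of myelin basic protein is among those that oligodendrocytes transport into their processes.

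Cortical cells of 3 wild type (WT) and 3 *Fmr1* knockout (*Fmr1*-KO) mice were barcoded in droplets with the InDrop system, in which each captured transcript end carries a unique molecular identifier (UMI). WT mice were FVB.129P2-Pde6b+ Tyrc-ch/AntJ and *Fmr1*-KO mice FVB.129P2-Pde6b+ Tyrc-ch Fmr1tm1Cgr/J, so that the Pde6b+ and Tyrc-ch alleles were shared by both groups. The Fmr1tm1Cgr allele is disrupted in every cell of the animal, and a genotype difference in oligodendrocytes can therefore not be assigned to the oligodendrocytes themselves. Both sexes were used, and the sex of each mouse was not used here. Barcoding beads of version V2 were used for WT 1, *Fmr1*-KO 1 and *Fmr1*-KO 2 (batch 1) and beads of version V3.8 for WT 2, WT 3 and *Fmr1*-KO 3 (batch 2), so that batch and bead version cannot be told apart.

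UMIs were summed over the oligodendrocytes of each mouse, which gave 96331, 343768 and 387346 UMIs in WT 1 to 3 and 136707, 155498 and 551216 in *Fmr1*-KO 1 to 3. Levels are given as CPM, in which the UMIs of a gene are divided by all UMIs of the same cells and brought to one common total. Before the results it must be said that libraries of the same mouse shared cell barcodes. Among 3307 such pairs 93.3% had the same subtype at both places, against 16.7% of 468 pairs between different mice. Of the 354 oligodendrocytes, 100 had their barcode in another library of the same mouse, and counting each barcode of a mouse once left 296 cells. The share of oligodendrocytes among cells, some shares of single cells and the genotype calls are given both ways. Other values count every entry.

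The label was first checked against its markers. *Mbp*, which encodes myelin basic protein, stood at 8928, 8674 and 11636 CPM in the oligodendrocytes of WT 1 to 3 and at 3328, 6978 and 10930 CPM in those of *Fmr1*-KO 1 to 3. In OPC_1 cells of the same mice it lay between 55.2 and 66.1 CPM. *Sirt2*, a deacetylase of the myelin sheath, lay between 4096 and 5835 CPM in the 6 mice, against 229.8 to 313 CPM in OPC_1. *Mag*, an adhesion protein of the membrane that faces the axon, lay between 490.1 and 898 CPM and had 1121 UMIs in all oligodendrocytes together, against 5 UMIs in all OPC_1 cells. *Mog*, a protein of the outer myelin surface, was at a lower and more variable level of 7.31 to 168 CPM, and had 161 UMIs against 1. All 4 markers were thus above OPC_1 in every mouse, and none went against the subtype name.

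The ratios to OPC_1 of these rare genes rest on few precursor UMIs. *Mag* was 834-fold higher than in OPC_1 (95% counting interval 356 to 2573) and *Mog* 599-fold (106 to 23799). *Enpp6*, a choline phosphodiesterase of newly formed oligodendrocytes, had 1438 UMIs against 4, a ratio of 1337 (521 to 4915). No test accompanies these ratios, because the subtypes were defined by clustering on the same counts.

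The promoters of *Mag* and *Enpp6* are shown because both genes were almost without UMIs in OPC_1. Both sequences are those of RefSeq for GRCm38.p6 (mm10), from 250 bases before the transcription start to 50 bases after it, 5′ to 3′ on the strand of the gene. *Mag* lies on the minus strand at chr7:30914814-30915113 and *Enpp6* on the plus strand at chr8:46986637-46986936. Capitals mark matches on either strand to 3 motifs, CTGGCAC (the core bound by the myelin regulator *Myrf*), ACAAAG (the core bound by SOX factors) and CAGCTG (an E-box as bound by *Olig2*).
Mag: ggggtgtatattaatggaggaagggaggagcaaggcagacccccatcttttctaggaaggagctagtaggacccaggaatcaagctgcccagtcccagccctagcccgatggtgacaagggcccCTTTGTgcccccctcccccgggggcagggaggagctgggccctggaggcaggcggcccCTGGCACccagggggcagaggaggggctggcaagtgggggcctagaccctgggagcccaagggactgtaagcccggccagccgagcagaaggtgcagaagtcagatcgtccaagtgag
Enpp6: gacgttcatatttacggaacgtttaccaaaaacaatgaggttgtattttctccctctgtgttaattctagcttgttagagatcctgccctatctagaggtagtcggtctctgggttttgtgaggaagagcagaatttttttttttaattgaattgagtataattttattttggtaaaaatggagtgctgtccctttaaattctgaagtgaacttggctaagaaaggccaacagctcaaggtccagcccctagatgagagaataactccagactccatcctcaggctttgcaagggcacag
The *Mag* window held CTGGCAC once, 68 bases before the start, and ACAAAG once on the opposite strand (CTTTGT), 126 bases before the start. The *Enpp6* window held none of the 3 motifs, as did those of *Sirt2* and *Mog*. Among all 27025 promoters of the table, 5.00% held CTGGCAC, 18.7% ACAAAG and 16.1% CAGCTG. Among the 4048 promoters of genes at 50 CPM or more, the pool of the sets that follow, the shares were 4.57%, 12.7% and 13.4%. Of the 307 promoters of genes higher in oligodendrocytes than in OPC_1 (as defined below), 6.51% held CTGGCAC, against 4.96% of the 565 promoters of genes lower in them. For ACAAAG these shares were 12.7% and 12.7%, and for CAGCTG 14.3% and 16.3%.

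Over the whole transcriptome, 5259 genes had a mean of at least 50 CPM in oligodendrocytes or in OPC_1. Of these, 400 genes (7.61%) were at least 2-fold higher in oligodendrocytes by the median within-mouse ratio and higher in 6 of 6 mice, and 775 genes (14.7%) were lower by the same rule. Both shares are the background against which the following lists are read, and the lists describe the clusters without a test. Ratios were taken after adding 0.5 CPM.

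Genes of myelin proteins were mostly higher in the oligodendrocytes. Of 14 such genes at 50 CPM or more, 10 were higher and 1 was lower. *Cnp*, an enzyme that keeps cytoplasmic channels in myelin open, had a mean of 4385 ± 1115 CPM (SD, n = 6 mice) against 234 CPM in OPC_1. *Cldn11*, the tight junction protein between myelin layers, stood at 891 ± 317 CPM (SD, n = 6) against 15.9 CPM. *Cd9* and *Tspan2*, both tetraspanins, had median log2 ratios of 1.87 and 2.09. *Pmp22*, best known from the myelin of peripheral nerves, was the gene lower in oligodendrocytes, at 7.88 CPM against 102 CPM. Markers of Schwann cells, the myelinating cells of peripheral nerves, were at 0 for 4 of 5 genes.

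**Figure D1:**
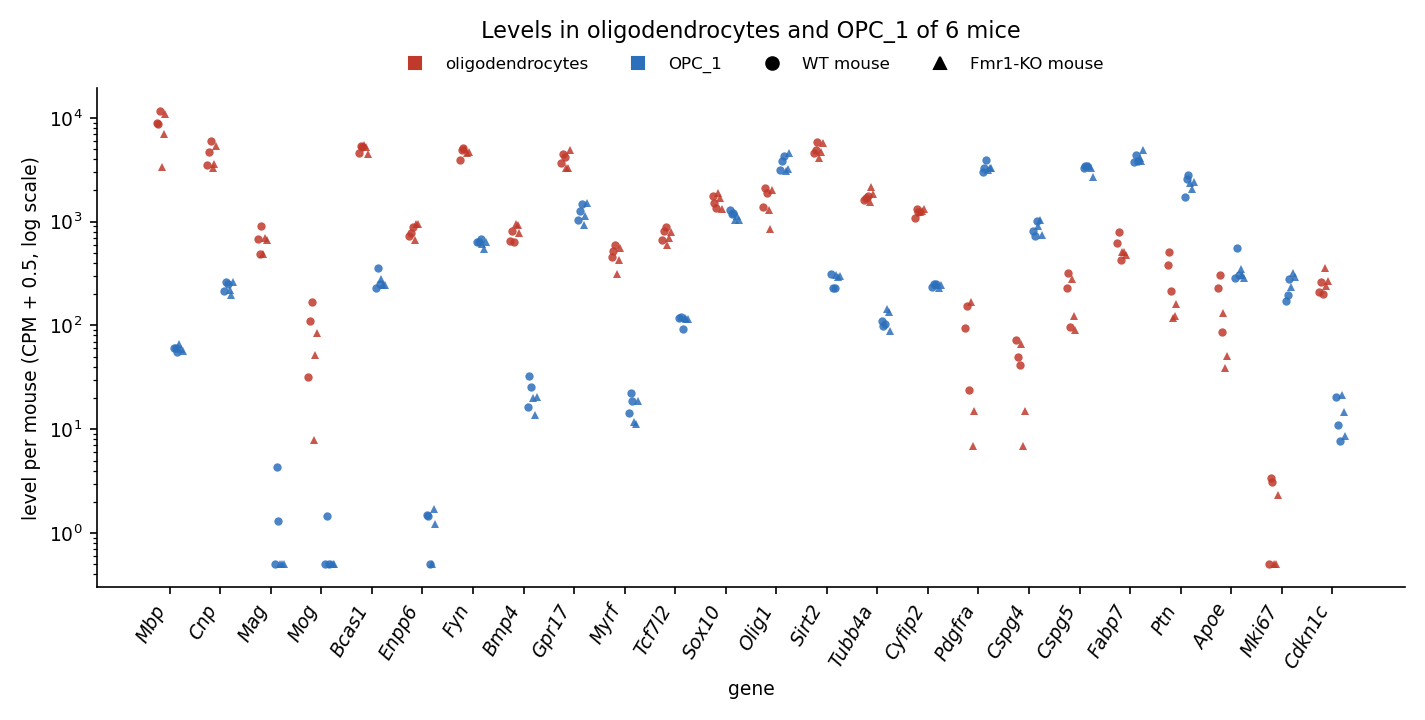
Levels of 24 genes in the oligodendrocytes (red) and OPC_1 cells (blue) of each mouse, as CPM of summed counts plus 0.5 on a log axis, with WT mice as circles and *Fmr1*-KO mice as triangles. Myelin genes such as *Mag* (490.1 to 898 CPM in oligodendrocytes) lie far above OPC_1 in every mouse, whereas *Pdgfra*, *Cspg4*, *Cspg5* and *Fabp7* lie below it in every mouse.

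Genes known from newly formed oligodendrocytes were mostly higher as well. Of 19 genes at 50 CPM or more, 18 were higher than in OPC_1 in every mouse and none was lower by the rule. Their summed level was 21988 ± 1814 CPM (SD, n = 6) against 2857 CPM in OPC_1. *Bcas1*, a protein of cells that begin to myelinate, stood at 4568, 5318 and 5233 CPM in WT 1 to 3 and at 5494, 5261 and 4474 CPM in *Fmr1*-KO 1 to 3. The mice differed little from each other for this gene, and its OPC_1 level was between 226 and 355 CPM. *Fyn*, a kinase that acts early in differentiation, had a mean of 4679 ± 428 CPM (SD, n = 6) against 625 CPM. *Bmp4*, a secreted ligand of the bone morphogenetic protein family, had 788 ± 134 CPM (SD, n = 6) against 21.0 CPM. *Gpr17*, a receptor that holds back final maturation, was listed with the precursor markers and not here. It ranged from 3248 to 4911 CPM, a median of 3.37-fold above OPC_1. In the next subtype, labelled OPC_2, *Enpp6* had 1 UMI, a ratio of 266 (95% counting interval 47.7 to 10531) in cells summed over all mice. Besides oligodendrocytes and their precursors, the study describes a small group of neural stem cells in this lineage cluster.

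By contrast, genes of the late mature stage were mostly scarce. Of 21 such genes, 15 were under 25 CPM and 4 of these had no UMI in any oligodendrocyte. For *Klk6*, *Hapln2*, *Serpinb1a* and *Il33* a count of 0 allows up to 1.80 CPM. *Mobp*, a myelin protein of compact sheaths, had 64 UMIs in 15 oligodendrocytes and none in OPC_1, at least 79.4-fold higher when the floor of 3 counts is set over all OPC_1 cells. Of these UMIs 39 came from 2 cells of WT 3, and without that mouse the bound was 40.4-fold. *Opalin* had 2 UMIs. Of the 21 genes, 4 were over 100 CPM. Among those at 50 CPM or more in either type, only *S100b*, a calcium-binding protein, was higher than in OPC_1 by the rule above. It stood at 1010 ± 186 CPM (SD, n = 6) against 95.2 CPM.

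Factors of the lineage were divided. *Myrf*, the regulator that switches on myelin genes, stood at 457, 521 and 594 CPM in WT 1 to 3 and at 315, 431 and 555 CPM in *Fmr1*-KO 1 to 3, and did not exceed 21.9 CPM in OPC_1. *Tcf7l2*, *Nkx2-2* and *Zeb2*, which promote differentiation, had median log2 ratios of 2.68, 2.16 and 2.13. *Sox10*, which is active throughout the lineage, was close in both types, at 1595 ± 224 CPM (SD, n = 6) against 1146 CPM. *Olig1* went the other way, at 1595 ± 497 CPM (SD, n = 6) against 3690 CPM, lower in all 6 mice. Of 16 genes known as inhibitors of differentiation, 9 were lower and 1, *Gpr17*, was higher. Examples are *Sox9*, at 21.5 CPM against 529 CPM, and *Hes5*, an effector of Notch signalling, at 20.3 CPM against 156 CPM.

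Precursor markers and cell cycle genes were mostly low. *Pdgfra*, the receptor for the growth factor that drives precursor division, stood at 93.4, 154 and 23.2 CPM in WT 1 to 3 and at 168, 6.43 and 14.5 CPM in *Fmr1*-KO 1 to 3. In OPC_1 it ranged from 3025 to 3946 CPM, without overlap. *Cspg4*, the NG2 proteoglycan, had a mean of 41.7 CPM against 872 CPM. In all, 12 of 18 precursor markers were lower and 2 were higher, with *Gpr17* among the latter. Of 26 cell cycle genes, 24 were lower, with *Top2a* at 2 UMIs against 1992 and *Mki67* at 3 UMIs against 1562. The one gene of this list that was higher was *Cdkn1c*, an inhibitor of the cell cycle (p57), at 255 ± 57.0 CPM (SD, n = 6) against 13.5 CPM. In the deposited phase calls 8 of 354 oligodendrocytes (2.26%) were in S or G2M phase, against 21.7% of OPC_1 cells, but such calls follow depth and background RNA as well.

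Lipid synthesis did not move as one block. Of 15 genes for myelin lipids, 6 were higher, among them *Ugt8a*, which makes galactosylceramide (812 ± 308 CPM against 167 CPM), and *Fa2h*, which hydroxylates its fatty acids (408 ± 72.1 CPM against 34.8 CPM; SD, n = 6). Of 20 genes of cholesterol synthesis none was 2-fold higher or lower, and their summed level was 3768 ± 719 CPM (SD, n = 6) against 4046 CPM in OPC_1. *Hmgcs1*, at the entry of the pathway, had a median log2 ratio of 0.10. Cholesterol genes were thus at about the same level in both types.

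Contact with axons, the cytoskeleton and signalling each had a few genes that stood out. *Nfasc*, an adhesion molecule whose glial form anchors myelin beside the node of Ranvier, had a mean of 2270 ± 567 CPM (SD, n = 6) against 143 CPM, while *Cntn1* was lower, at 415 ± 142 CPM (SD, n = 6) against 1891 CPM. *Tubb4a*, a tubulin typical of oligodendrocytes, and *Map1b*, a microtubule-associated protein, had median log2 ratios of 4.04 and 3.78. *Qk*, an RNA-binding protein that controls myelin mRNAs, had 3885 ± 250.3 CPM (SD, n = 6) against 1972 CPM. Among receptors, *Plxnb3* had a median log2 ratio of 4.57, and *Lpar1* had 165 UMIs against 8. *Gria3*, a glutamate receptor subunit, and *Ntrk2* were lower, with log2 ratios of −1.41 and −1.70. Over the list of receptors, 4 of 16 genes were higher and 7 lower, and over ion and metabolite transport 5 of 18 were higher and 7 lower. Of 13 genes around lipoproteins and pleiotrophin, 9 were lower and none was higher, among them *Ptn* itself and its receptor *Ptprz1*, at 453 ± 133 CPM (SD, n = 6) against 1434 CPM. All 8 genes of the dissociation response at 50 CPM or more were lower in oligodendrocytes.

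Outside the lists, *Epcam*, known as an adhesion molecule of epithelia, had 266 UMIs in 128 oligodendrocytes and none in OPC_1. It was therefore at least 330-fold higher, with the floor of 3 counts over all OPC_1 cells. In the mice its level was even, at 166, 175 and 178 CPM in WT 1 to 3 and 110, 154 and 149 CPM in *Fmr1*-KO 1 to 3. The next subtype was Ependymal, which was 19.9-fold lower in summed cells. *Lgi3*, a secreted protein, was 35.9-fold above its next subtype (Excitatory), and *Cdk18*, a kinase, 23.2-fold above its next (Microglia).

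Cells were then examined one by one. The 20 myelin protein genes together took a median of 2.83% of the UMIs of an oligodendrocyte and 0.36% of those of an OPC_1 cell. The 95th percentile of OPC_1 cells was 0.681%, and 338 of 354 oligodendrocytes (95.5%) lay above it, or 286 of 296 (96.6%) with each barcode counted once. After each cell was thinned to 1000 UMIs, which 46 oligodendrocytes did not reach, *Mbp* was seen in 79.5% of the oligodendrocytes (84.5% without thinning). The share was 5.31% in OPC_1, 3.07% in Excitatory neurons and 1.01% in Astrocytes_1 (median depths of 3303 UMIs in oligodendrocytes and 1274 in Excitatory neurons). The part of free RNA in these shares was not tested. *Mag* was seen in 30.2% of thinned oligodendrocytes (43.8% without thinning) and in 0.059% of thinned OPC_1 cells.

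Markers of different stages met in the same cells. Of the 245 thinned cells with a UMI of *Mbp*, 224 (91.4%) also had one of *Gpr17*, which was seen in 91.6% of all thinned oligodendrocytes and 62.3% of thinned OPC_1 cells. With each barcode counted once this was 193 of 212 cells (91.0%). Of the 93 cells with *Mag*, 80 (86.0%) also had *Gpr17* and 89 (95.7%) had *Bcas1*. *Bcas1* was also seen in 204 cells without *Mag*, and 11 of the 308 thinned cells had neither. Both *Gpr17* and *Bcas1* were thus seen in most cells, with or without *Mag*. *Pdgfra* and *Mag* were seen together in 1 cell. None of the 354 cells carried the doublet mark of the deposited annotation, and no further doublet call was made.

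**Figure D2:**
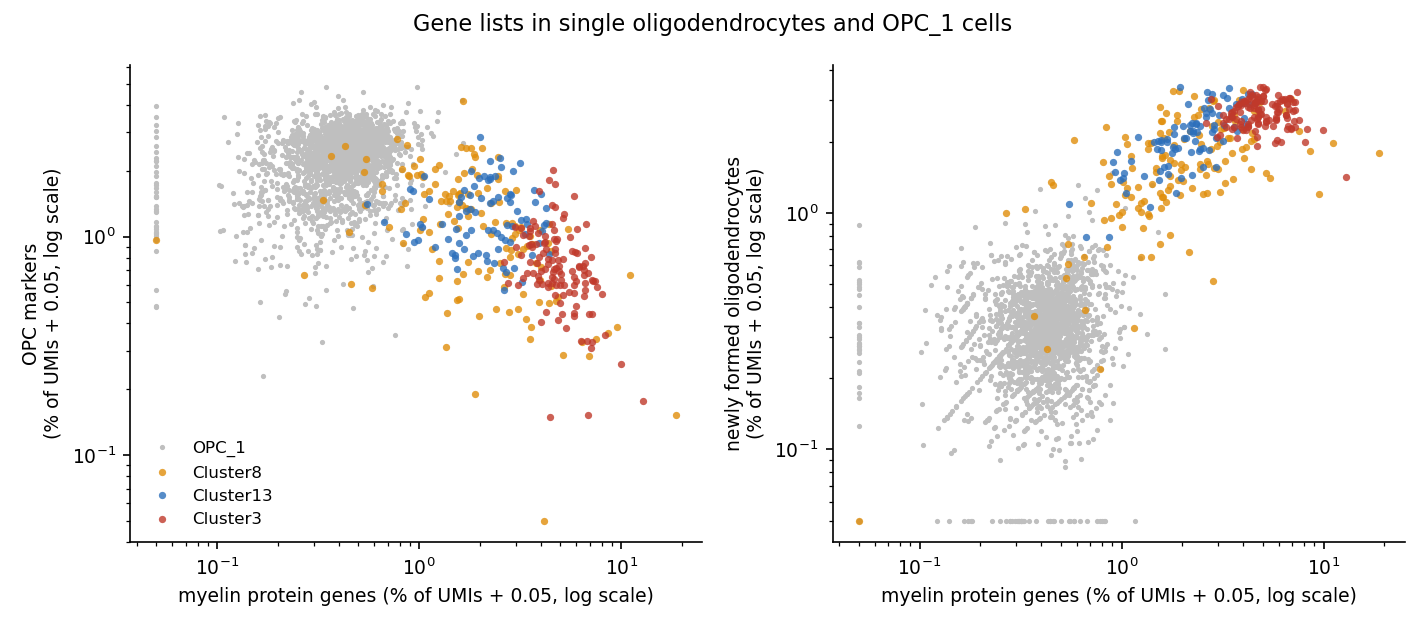
Each point is 1 cell, with the share of its UMIs in the 20 myelin protein genes on the horizontal axis and in the precursor markers (left) or the genes of newly formed oligodendrocytes (right) on the vertical axis, both as percent plus 0.05 on log axes. Oligodendrocytes are coloured by their deposited cluster and OPC_1 cells are grey, and 338 of 354 oligodendrocytes lie to the right of the 95th percentile of OPC_1 (0.681%).

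The deposited annotation divides these oligodendrocytes into 3 clusters. Cluster3 held 122 cells (34.5%) with a median of 6038.5 UMIs, Cluster13 held 87 cells (24.6%) with a median of 6600.0 UMIs, and Cluster8 held 145 cells (41.0%) with a median of only 1483 UMIs. Since Cluster8 cells were shallow, this cluster gave 17.01% of all oligodendrocyte UMIs. All 3 clusters were found in each mouse. Differences between the clusters are described without a test, because the clusters were made from these counts.

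Cluster3 carried most of the myelin transcripts. *Mbp* was at 16058 CPM in Cluster3, 3438 CPM in Cluster13 and 3454 CPM in Cluster8. *Mag* was at 1230 CPM in Cluster3 but at 143 CPM in Cluster13 and 165 CPM in Cluster8, and *Mog* at 180, 20.6 and 14.1 CPM. The connexin gene *Gjc3* (924, 94.6 and 87.9 CPM) and *Nfasc* (3906, 897 and 605 CPM) were likewise highest in Cluster3. *Lpar1*, a receptor for lysophosphatidic acid, was found mostly in Cluster3, with 196 CPM against 1.72 and 21.1 CPM.

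*Gpr17* had the opposite order, with 2622 CPM in Cluster3, 5976 CPM in Cluster13 and 5590 CPM in Cluster8. *Bcas1* hardly differed between Cluster3 (5309 CPM) and Cluster13 (5257 CPM), and was at 3514 CPM in Cluster8. *Enpp6* was at 1209 CPM in Cluster3, 647 CPM in Cluster13 and 310 CPM in Cluster8, whereas *Bmp4* was highest in Cluster13, at 971 CPM against 678 CPM in Cluster3 and 616 CPM in Cluster8. Genes of newly formed cells thus did not share 1 order over the clusters.

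Summed over all mice, Cluster8 was above the other clusters in some precursor and immediate early genes, but WT 2 gave many of these UMIs. *Pdgfra* was at 285 CPM in Cluster8, against 12.4 CPM in Cluster3 and 20.6 CPM in Cluster13, and at 175 CPM in Cluster8 without WT 2. In single mice it ran from 26.7 CPM in *Fmr1*-KO 3 to 899.7 CPM in *Fmr1*-KO 1. *Ptn*, a secreted heparin-binding growth factor, was at 904 CPM against 114 and 121 CPM, and at 679 CPM without WT 2. *Apoe*, a lipid carrier made mainly by astrocytes, was at 422 CPM against 57.1 and 80.9 CPM, but 84 of its 120 Cluster8 UMIs came from WT 2, and without that mouse it was at 204 CPM. In *Fmr1*-KO 1 the order was the opposite, with 1 UMI of *Apoe* in Cluster8 (49.99 CPM) against 207 CPM in Cluster3 and 121 CPM in Cluster13. *Fos*, an immediate early gene, was at 359 CPM against 38.5 and 37.9 CPM, with 68 of its 102 Cluster8 UMIs from WT 2 (192 CPM without it) and none from WT 1. The 15 astrocyte markers summed to 1266 CPM in Cluster8, against 277 and 470 CPM, and the 14 neuron markers to 679 CPM, against 112 and 198 CPM. Without WT 2 the astrocyte markers summed to 877 CPM in Cluster8, and without *Fmr1*-KO 2 the neuron markers summed to 412 CPM. The part of depth, free RNA or mixed cells in these levels was not tested.

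**Figure D3:**
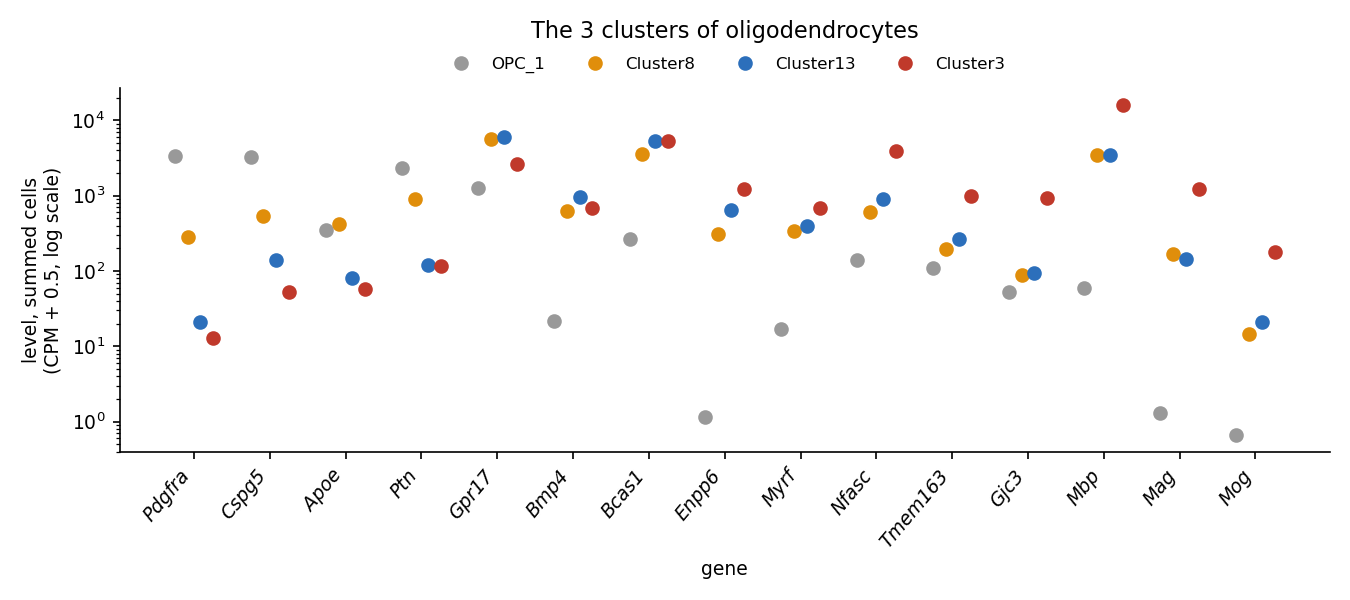
Levels of 15 genes in OPC_1 and in the 3 clusters of oligodendrocytes, as CPM of counts summed over all cells of a cluster plus 0.5 on a log axis, without error bars because each point is 1 sum. *Mbp*, *Mag* and *Mog* are high in Cluster3, *Gpr17* is high in Cluster13 and Cluster8, and *Pdgfra*, *Cspg5*, *Apoe* and *Ptn* are higher in Cluster8 than in the other clusters in these sums, to which WT 2 gave 84 of 120 Cluster8 UMIs of *Apoe*.

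Markers of other cell types were low over all oligodendrocytes. The astrocyte markers summed to 337 to 899 CPM in the 6 mice, which on average was 1.81% of their level in Astrocytes_1, with *Ntsr2* at 0. The neuron markers summed to 62.0 to 791 CPM, or 2.71% of their level in Excitatory neurons. Markers of microglia (3 of 10 genes at 0), endothelial cells, pericytes (1 of 8 at 0) and ependymal cells (3 of 7 at 0) were at 0.14%, 0.42%, 0.10% and 0.22% of the level in their own type. At least 3 markers of another type were seen in 87 of 354 oligodendrocytes (24.6%), 71 of them with astrocyte and 30 with neuron markers. The same count was met by 1229 of 1953 OPC_1 cells (62.9%), 1115 of them with astrocyte markers, so that it does not by itself mark a mixed cell. With each barcode counted once it was met by 78 of 296 oligodendrocytes.

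The genotypes were compared next, with the mouse as the replicate. The first question was whether the loss of *Fmr1* goes with a different number of oligodendrocytes. They were 0.98%, 2.66% and 1.76% of the single cells of WT 1 to 3 and 1.18%, 1.48% and 3.68% of those of *Fmr1*-KO 1 to 3. The groups overlapped, and the means of 1.80% ± 0.84 in WT and 2.11% ± 1.37 in *Fmr1*-KO mice (SD, n = 3) did not differ beyond the spread (two-sided exact permutation p = 0.80, where 0.10 is the smallest p that 3 against 3 mice can give). Of the oligodendrocytes and OPC_1 cells together, oligodendrocytes made up 8.78%, 17.2% and 15.5% in WT and 10.3%, 11.5% and 22.04% in *Fmr1*-KO mice (exact permutation p = 0.90). With cell numbers of 18 subtypes in edgeR and batch as a covariate, the share of all cells had a log2 fold change of 0.60 (edgeR FDR = 0.60). The lineage share had one of 0.40 (edgeR FDR = 0.026). That fit held only 2 counts per mouse, oligodendrocytes and OPC_1, which mirror each other, so that its estimate of spread rests on little. The log2 fold change of the lineage share was 0.33 without *Fmr1*-KO 3 (edgeR FDR = 0.65) and 0.35 without WT 3 (edgeR FDR = 0.082). With each barcode counted once it was 0.35 (edgeR FDR = 0.093). Within batch 1 the share of the lineage was 2.13 percentage points higher in *Fmr1*-KO mice and within batch 2 it was 5.71 points higher. With each barcode of a mouse counted once, the share of single cells was 1.82% in WT and 2.00% in *Fmr1*-KO mice (exact permutation p = 0.80), and the share of the lineage 13.6% and 14.1% (exact permutation p = 1.00). The clusters took similar numbers of cells in both genotypes (63, 44 and 77 cells of Cluster3, Cluster13 and Cluster8 in WT, and 59, 43 and 68 in *Fmr1*-KO mice), but varied between mice. Cluster8 gave 34.9%, 31.3% and 3.65% of the oligodendrocyte UMIs in WT 1 to 3 and 14.6%, 21.9% and 13.6% in *Fmr1*-KO 1 to 3, with ranges of 3.03% to 36.9% and 11.5% to 17.1% when each barcode was counted once.

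*Fmr1* itself was low in oligodendrocytes, with 31.1, 46.5 and 62.0 CPM in WT 1 to 3 and 14.6, 25.7 and 7.26 CPM in *Fmr1*-KO 1 to 3. All *Fmr1*-KO mice were below all WT mice. Since *Fmr1* had a UMI in only 11.9% of the oligodendrocytes, it was below the limit of 15% for testing. Without that limit its log2 fold change was −1.96, with an unadjusted edgeR p of 0.0014 and an FDR of 0.91 over 13061 genes. In OPC_1 of the same mice the levels were 72.8, 89.6 and 123 CPM in WT and 28.1, 26.2 and 24.2 CPM in *Fmr1*-KO mice, with a log2 fold change of −1.78 and an edgeR FDR of 0.0042. The labels for genotype therefore matched the counts. UMIs were counted at transcript ends, outside the disrupted part of the allele, and the level of intact mRNA was not measured.

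Genes seen in 15% or more of the oligodendrocytes were tested with edgeR's quasi-likelihood test on sums per mouse, with batch as a covariate. At an FDR under 0.01 and a minimum fold change, both as in the methods of the study, 2 of 4726 genes (0.0423%) were called, both lower in *Fmr1*-KO mice. At an unadjusted p under 0.05 there were 208 genes (4.4%), 93 higher (1.97%) and 115 lower (2.43%). The mice of both groups did not overlap for 9.04% of the genes. The median log2 fold change over all genes tested was 0.00.

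The first called gene was *Apoe*, with 228, 308 and 85.2 CPM in WT 1 to 3 and 132, 38.6 and 50.8 CPM in *Fmr1*-KO 1 to 3. WT 3 was below *Fmr1*-KO 1, so that the groups overlapped, and the difference became clear only within batches. The log2 fold change was −1.74 (SE 0.31, edgeR FDR = 1.3e-04), with −1.67 in batch 1 and −1.67 in batch 2. The second was *Ptn*, with 384, 512 and 212 CPM in WT and 117, 122 and 161 CPM in *Fmr1*-KO mice. All 3 *Fmr1*-KO mice were below all 3 WT mice, as was the case for 4.36% of all genes tested. The log2 fold change of *Ptn* was −1.33 (SE 0.25, edgeR FDR = 3.3e-04), with −1.68 in batch 1 and −1.03 in batch 2.

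Both calls rest on few UMIs. *Apoe* had 213 UMIs in all oligodendrocytes, 120 of them (56.3%) in Cluster8, and *Ptn* had 419 UMIs, 257 of them (61.3%) in Cluster8. These shares were 33.6% for *Apoe* and 49.4% for *Ptn* without WT 2, and Cluster8 gave 15.2% of the *Apoe* UMIs in WT 3 and 5.56% in *Fmr1*-KO 1. Within Cluster8, *Ptn* was at 864, 1275 and 1060 CPM in WT 1 to 3 and at 549.8, 353 and 706 CPM in *Fmr1*-KO 1 to 3. In Cluster3 and Cluster13 together it was at 127, 165 and 179.5 CPM in WT and at 42.8, 57.6 and 75.6 CPM in *Fmr1*-KO mice. The genotypes did not overlap in either part, and the same order was found for 5.31% of the genes tested in Cluster8 and for 4.8% in the other clusters. For *Apoe* they did not overlap in Cluster8 (298, 781 and 353 against 49.99, 88.2 and 227 CPM, from 10, 84 and 5 against 1, 3 and 17 UMIs, with 9 cells in WT 3) but did in the other cells (191, 93.1 and 75.03 against 146, 24.7 and 23.1 CPM). When Cluster8 was left out, neither gene was called, with log2 fold changes of −1.52 for *Apoe* and −1.22 for *Ptn* at edgeR FDRs of 1.00. Neither was called with each barcode of a mouse counted once (edgeR FDR = 0.15 for *Apoe* and 0.14 for *Ptn*), with DESeq2 (adjusted p = 1.00 for both), with no batch term (edgeR FDR = 1.00 and 0.93), with the replicate number as a block (edgeR FDR = 0.14 and 0.070), with cells of 3 or more other markers left out (edgeR FDR = 1.00 for both), or without WT 1, WT 2, *Fmr1*-KO 1 or *Fmr1*-KO 3, although the fold changes stayed below 0.

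**Figure D4:**
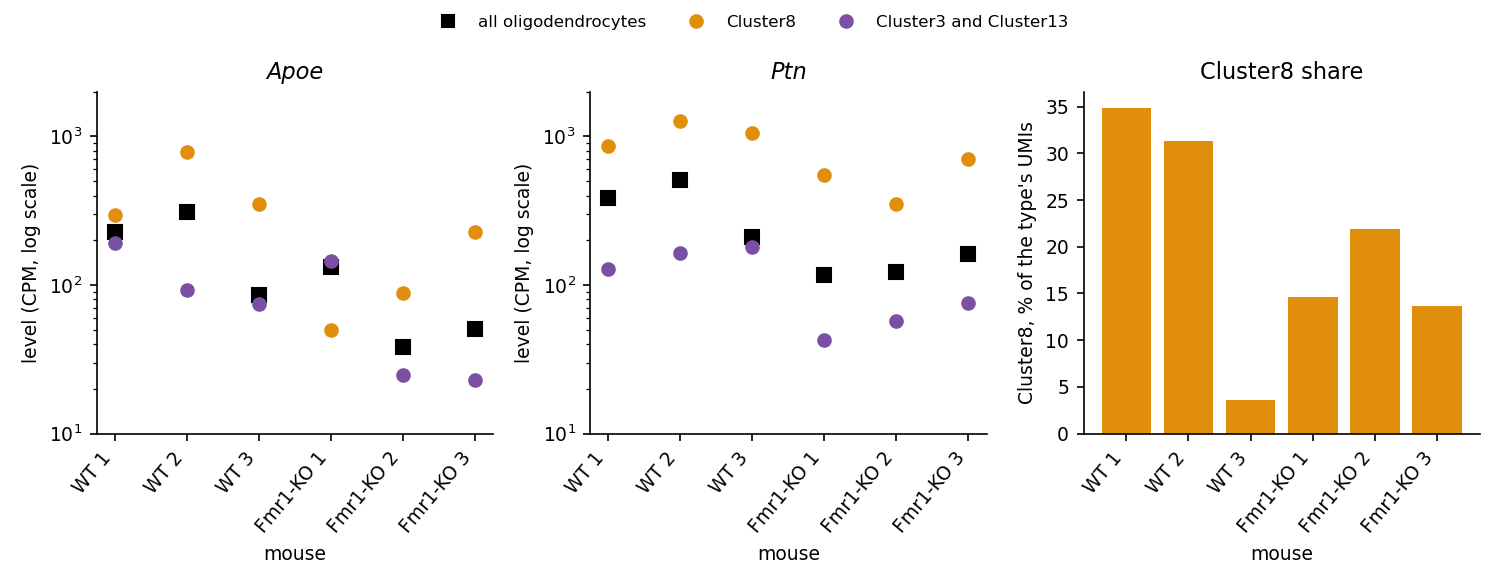
Levels of *Apoe* and *Ptn* in each mouse as CPM on a log axis, for all oligodendrocytes (black squares), Cluster8 (orange) and the other 2 clusters (violet), and, on the right, the share of oligodendrocyte UMIs that came from Cluster8. *Ptn* is lower in each *Fmr1*-KO mouse than in each WT mouse in both parts of the cells, while the Cluster8 share runs from 3.65% in WT 3 to 34.9% in WT 1.

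OPC_1 was the one other subtype tested, and neither gene passed there. *Ptn* in OPC_1 ranged from 1734 to 2813 CPM in WT and from 2072 to 2431 CPM in *Fmr1*-KO mice (edgeR FDR = 0.95, log2 fold change 0.12). *Apoe* in OPC_1 was at 288, 558 and 307 CPM in WT and 352, 303 and 284 CPM in *Fmr1*-KO mice (edgeR FDR = 0.95, log2 fold change −0.21). The genotype effects in oligodendrocytes and OPC_1 were then compared directly, by the term for genotype and cell type, each mouse being a block. None of 5230 genes (0.0%) differed at an edgeR FDR under 0.05, and 144 (2.75%) had an unadjusted p under 0.05. For *Ptn* the difference of the effects was −1.26 on the log2 scale (SE 0.32), and for *Apoe* −1.16 (SE 0.37), at edgeR FDRs of 1.00. A genotype effect particular to oligodendrocytes was therefore not shown for either gene. The study names *Apoe* among genes lower in several *Fmr1*-KO cell types. In subtypes not tested here its levels went both ways. In Pericytes *Apoe* was at 241, 370 and 327 CPM in WT and 201, 195 and 189 CPM in *Fmr1*-KO mice. In Interneuron cells it was at 83.7, 99.5 and 70.5 against 175, 153 and 125 CPM. *Ptn* was there at 258, 180 and 172 against 291, 331 and 368 CPM.

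Next in order of p came *Polr3e*, a subunit of RNA polymerase III, and *Slc1a2*, a glutamate transporter known from astrocytes. *Polr3e* had 62.3, 137 and 186 CPM in WT 1 to 3 and 36.6, 45.0 and 36.3 CPM in *Fmr1*-KO 1 to 3 (log2 fold change −1.73, edgeR FDR = 0.015). *Slc1a2* had 114, 137 and 56.8 CPM in WT and 36.6, 51.4 and 23.6 CPM in *Fmr1*-KO mice (edgeR FDR = 0.066, log2 fold change −1.74). Neither gene overlapped between the genotypes, as was the case on the lower side for 4.36% of all genes tested, and neither met the threshold. *Slc1a2* had 106 UMIs, 58 of them in Cluster8. Genes further down the order did not come near the threshold (edgeR FDR of 0.38 or more), even where the genotypes did not overlap (9.04% of all genes tested). *Rapgef1*, an exchange factor for small GTPases, had 509, 445 and 542 CPM in WT and 271, 309 and 319 CPM in *Fmr1*-KO mice (log2 fold change −0.69). *Ldha*, a subunit of lactate dehydrogenase, had 104, 140 and 214 CPM in WT and 446, 315 and 223 CPM in *Fmr1*-KO mice (log2 fold change 0.78).

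Of 15 astrocyte markers 5 could be tested and none was called. All 5 had log2 fold changes below 0 (median −0.91), while 50.4% of all genes tested were above 0, and *Slc1a2*, *Aldoc* and *Slc1a3* were among those with an unadjusted p under 0.05 (2.43% of all genes on the lower side). Leaving out single mice moved the median between −1.25 (without WT 3) and −0.38 (without WT 2). The 15 markers summed to 664, 899 and 421 CPM in WT 1 to 3 and 549, 379 and 337 CPM in *Fmr1*-KO 1 to 3, with overlap between the groups. Neuron markers summed to 540, 183 and 62.0 CPM in WT and to 636, 791 and 88.9 CPM in *Fmr1*-KO mice, and were higher in each mouse of batch 1 than in each mouse of batch 2. The part of astrocyte RNA in the levels of *Apoe*, *Ptn* and *Slc1a2* was not tested.

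None of the myelin genes was called. *Mbp* had a log2 fold change of −0.32 (edgeR FDR = 0.99, SE 0.12), which came from batch 1 (−0.89) and not from batch 2 (0.12). *Fmr1*-KO 1, with the lowest *Mbp* level of 3328 CPM, also had the fewest cells of Cluster3, 3 of 24. Within Cluster3, *Mbp* was at 20329, 16300 and 15519 CPM in WT 1 to 3 and 8126, 11574 and 18193 CPM in *Fmr1*-KO 1 to 3. Within Cluster13 it was at 3545, 4047 and 4714 CPM in WT and 1605, 1556 and 3385 CPM in *Fmr1*-KO mice. Cluster8 had 1996, 3572 and 9961 CPM against 2349, 1734 and 3785 CPM. The part of the clusters in the *Mbp* difference was not tested. The log2 fold change was 0.02 for *Sirt2*, −0.13 for *Mag* and −0.63 for *Mog*, each at an edgeR FDR of 1.00. Of 13 tested genes of myelin proteins, 4 were higher and 9 lower (median −0.07), and 3 of the lower ones, *Mbp*, *Tspan2* and *Gpm6b*, had an unadjusted p under 0.05, as had 2.43% of all genes on the lower side. Genes of newly formed oligodendrocytes were 10 higher and 10 lower (median 0.01), with *Bcas1* at a log2 fold change of 0.00 and *Enpp6* at 0.19. No difference in the stage genes was called at these numbers of cells.

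Among the lists with more than 10 tested genes, cholesterol synthesis had the largest share of genes above 0. Of 20 genes tested, 15 were higher in *Fmr1*-KO mice, with a median log2 fold change of 0.26 (0.29 within batch 1 and 0.32 within batch 2), while 50.4% of all genes tested were higher. None of them was called. *Hmgcs1*, *Acat2*, *Mvk* and *Fdft1* had an unadjusted p under 0.05, all higher, as had 1.97% of all genes. *Hmgcs1*, the synthase that feeds the pathway, was at 353, 559 and 914 CPM in WT 1 to 3 and at 841, 791 and 952 CPM in *Fmr1*-KO 1 to 3. WT 3 lay above 2 of the *Fmr1*-KO mice, and the log2 fold change of 0.66 had an edgeR FDR of 0.38. The summed level of the list was 3021, 2726 and 4415 CPM in WT and 3957, 4122 and 4367 CPM in *Fmr1*-KO mice, so that WT 1 and WT 2 were below each *Fmr1*-KO mouse and WT 3 above. Leaving out single mice moved the median between 0.10 (without WT 2) and 0.37 (without WT 3). In OPC_1 14 of 16 tested genes of the list were higher, with a median of 0.10, beside 50.5% of all genes tested there.

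**Figure D5:**
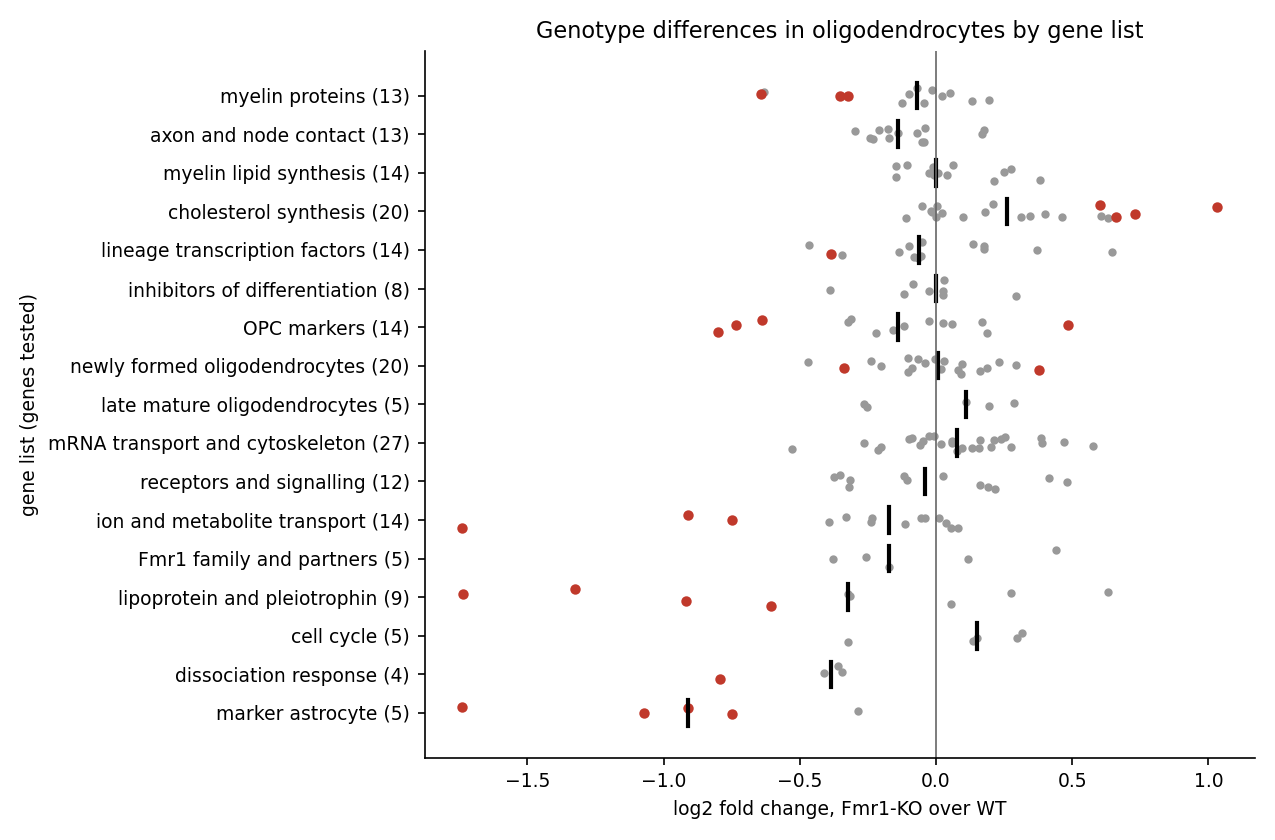
Log2 fold change of *Fmr1*-KO over WT mice in oligodendrocytes for each tested gene of the lists, with the number of tested genes in brackets, the median as a black bar and genes with an unadjusted p under 0.05 in red. Cholesterol synthesis has a median of 0.26 and astrocyte markers one of −0.91, and 2 genes in all, *Apoe* and *Ptn*, met the threshold for a call.

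The other lists had medians nearer to 0, apart from short ones. Genes for contact with axons were 2 higher and 11 lower (median −0.14) and those for myelin lipids 7 higher and 7 lower (median 0.00), without any unadjusted p under 0.05. Precursor markers were 5 higher and 9 lower (median −0.14), with *Cspg5*, *Ncan* and *Ednrb* lower and *Lhfpl3* higher at an unadjusted p under 0.05 (all genes: 2.43% lower and 1.97% higher). Genes of mRNA transport and the cytoskeleton were 17 higher and 10 lower (median 0.08), and receptors 6 and 6 (median −0.04). Lineage factors were 5 higher and 9 lower (median −0.06), with *Olig2* at a log2 fold change of −0.39 and an edgeR FDR of 0.99. Of the genes around lipoproteins and pleiotrophin, 3 were higher and 6 lower (median −0.32), and *Sdc3* and *Clu*, besides the 2 called genes, had an unadjusted p under 0.05 (2.43% of all genes on the lower side). Ion and metabolite transport had 4 higher and 10 lower genes (median −0.17), with the astrocyte markers *Slc1a2* and *Slc1a3* among the latter. Of the short lists, inhibitors of differentiation were 4 higher and 4 lower, late mature genes 3 and 2, cell cycle genes 4 and 1, and genes of the dissociation response 0 and 4 (median −0.39).

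The relatives and partners of FMRP were examined last. *Cyfip2*, which binds FMRP and is part of a complex that regulates actin, was even across mice at 1245 ± 90.6 CPM (SD, n = 6), and a median of 5.13-fold above OPC_1. Its log2 fold change between genotypes was 0.12. *Fxr1* and *Fxr2*, the paralogues of *Fmr1*, had log2 fold changes of −0.26 and −0.38, and *Cyfip1* one of 0.44. None of these passed the test (edgeR FDR of 1.00 each), and each overlapped between the genotypes. A call in OPC_1 was made for 1 of 4076 genes (0.0245%), which was *Fmr1* itself.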

How the data were processed

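The deposited table held UMI counts of 17418 genes in 18393 cells, and an annotation table gave each cell's library, mouse, subtype, cluster and cell cycle phase. The authors ran bcl2fastq and TopHat2 2.0.14 on mm10 per the submitters' notes, counted UMIs per RefSeq gene with ESAT, and removed barcodes with few UMIs. These counts were deposited without normalization. The authors' size factor per cell, a ratio from scran deposited in the annotation, was left unused. Cells belonged to mice by the deposited annotation, and mice to genotypes by the labels.

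UMIs were summed per mouse over oligodendrocytes, OPC_1 and the clusters. Genotypes were compared with edgeR 4.0.16 (quasi-likelihood test, TMM, batch as covariate, R 4.3.3, limma 3.58.1) for genes seen in 15% or more of the cells, with Benjamini-Hochberg adjustment over all genes tested, and called at an FDR under 0.01 and at least 1.15-fold. The effect in oligodendrocytes against OPC_1 was tested as an interaction with the mouse as a block (FDR under 0.05). Shares of cells were compared with exact permutation tests over mice. Ratios used CPM plus 0.5. Intervals and floors (3 counts) cover counting error only, and libraries of a mouse come from the same animal, so that n is the number of mice. Tests were tried on simulated data. Alternatives were other normalization, filters, DESeq2 1.42.0, thinning, no batch term, a replicate block, mixed cells (3 or more markers of another type) or single mice left out, and, added after seeing the data, 1 entry per barcode, no Cluster8, and single mice left out of Cluster8 levels and of cell numbers in edgeR. Tables and permutation tests were made in Python 3.11.15 (scipy 1.17.1, pandas 2.3.3, numpy 2.4.6).

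Members and gene lists were chosen with earlier results of these data known. Genes named were the markers, *Fmr1* and its partners, *Slc1a2*, called genes, up to 15 genes with the smallest p and the same sign in both batches, the extremes of each list and of the ratio to OPC_1, and genes with the largest ratio to the next subtype. *Hes5*, *Ptprz1* and a few more list members fall under the list rule. Promoters came from RefSeq (GRCm38.p6), in which *Bcas1*, *Myrf* and *Mbp* were not matched. A few genes of the lists and of the naming rule are not reported here.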

Additional observations from a re-analysis of the deposited data

How the results depend on the processing

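Oligodendrocytes numbered 24 to 108 per mouse, which limits every genotype comparison. The 2 genotype calls in oligodendrocytes were 2 also without TMM, with filterByExpr and with no filter, but 0 with no batch term, with DESeq2 (51 genes at an unadjusted p under 0.05), after thinning to 1000 UMIs, with mixed cells left out, with 1 entry per barcode and without Cluster8. They ranged from 0 to 3 when single mice were left out, with 0 without WT 1, WT 2, *Fmr1*-KO 1 or *Fmr1*-KO 3, 2 without WT 3 and 3 without *Fmr1*-KO 2, where *Polr3e* was added. After thinning only 1172 genes passed the limit of 15% of cells, and *Apoe* was not among them, so that it was not tested there. The log2 fold change lay between −2.08 and −1.10 for *Apoe* and between −1.67 and −0.91 for *Ptn* over the alternatives in which the gene was tested. The cause was not tested.

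The replicate numbers did not pair the mice, since WT and *Fmr1*-KO mice of the same number had deviations correlated at 0.16, −0.07 and 0.29 over 4726 genes. With the replicate number as a block, 0 genes were called in oligodendrocytes and 0 in OPC_1, and the log2 fold change of *Sirt2* was −0.071.

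The single call in OPC_1 became 0 with no batch term, after thinning and with mixed cells left out, and 5 with no filter. It ranged from 0 to 15 with single mice left out (15 without WT 1, 0 without WT 3, *Fmr1*-KO 1 or *Fmr1*-KO 3). The interaction had 0 calls except without WT 3, where *Ptn* and *Slc1a2* made 2.

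The difference in the share of all cells ranged from −0.47 (without *Fmr1*-KO 3) to 0.78 percentage points with single mice left out, being −0.095 without WT 1, and that in the share of the lineage from −2.90 to 2.94, being −1.71 without WT 1. The lineage share in edgeR gave 0.40 on the log2 scale, 0.33 to 0.45 with single mice left out (FDR = 0.65 without *Fmr1*-KO 3 and 0.082 without WT 3) and 0.35 with 1 entry per barcode (FDR = 0.093).

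Some small log2 fold changes turned sign. With single mice left out, the value ranged from −0.78 to 0.11 for *Mbp* (0.11 without WT 1), from −0.068 to 0.10 for *Sirt2*, from −0.33 to 0.12 for *Mag* (0.12 without WT 3), from −0.45 to 0.19 for *Fxr1* and from −0.77 to 0.43 for *Fxr2*, both of these highest without *Fmr1*-KO 3. *Sirt2* became −0.067 with no batch term, −0.0073 with mixed cells left out and −0.088 without Cluster8. *Mag* became 0.070 after thinning, and *Cspg5* became 0.22 without Cluster8.

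Shares of cells with a UMI follow depth. Without thinning they were 43.8% for *Mag*, 16.4% for *Mog* and 66.1% for *Enpp6*, and thinned to 700 UMIs 21.5% for *Mag* and 90.7% for *Bcas1*. Genes higher than in OPC_1 numbered 390 to 423 with single mice left out, and lower ones 760 to 841.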
